A study of Mus musculus with 8 samples.

Results

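The G2/M genes examined here are 50 mouse genes whose products act in G2 and mitosis. They form a list of gene names, out of the 53465 genes of a bulk RNA-seq count table, that uses no measured value in its rule but was drawn up with earlier results of these data known. All 50 were among the 14301 genes with enough reads to be tested, and the lowest count of any of them in any library was 360. In mammalian cells these transcripts accumulate from late S phase to mitosis. Entry into mitosis is driven by the kinase CDK1 bound to a B-type cyclin, and exit by the anaphase-promoting complex (APC/C), which marks cyclins and other mitotic proteins for degradation. In quiescent or arrested cells many of these genes are held down together by the DREAM complex at a promoter element called the cell-cycle genes homology region (CHR), often found near CCAAT boxes. In epithelial cells TGFβ acts through SMAD2, SMAD3 and SMAD4 and is best known in cell-cycle control for arrest in G1.

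The cells were a pair of pancreatic ductal adenocarcinoma (PDAC) lines, B73 and B87, derived from primary tumors of KC-shSmad4 mice. Each library of either line carried the same alleles, so no comparison below is between genotypes. These include *Ptf1a*-Cre (Cre in the pancreatic lineage), a Cre-activated reverse tetracycline transactivator rtTA3 with the reporter mKate2 at Rosa26, and a doxycycline (Dox)-inducible, GFP-linked *Smad4* shRNA at Col1a1. Cells kept on Dox are called *Smad4* off and cells withdrawn from Dox for 5 days *Smad4* on. Each was then treated for 24 h with TGFβ1 (100 pM) or with the TGFβ receptor inhibitor SB505124 (2.5 µM), so SB505124 cells are the signaling-blocked control rather than untreated cells. The 4 groups held 2 libraries each, 1 per line. Replicate spread is therefore the spread between lines, no line was repeated within a condition, and Dox withdrawal and *Smad4* restoration cannot be told apart.

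Total counts per library were between 18389235 and 23440550. The targeted gene followed its labels: *Smad4* was measured at 33.4, 97.3, 35.0 and 116 CPM in B73 and 34.8, 114, 35.5 and 116 in B87 (order: *Smad4* off with SB505124, *Smad4* on with SB505124, *Smad4* off with TGFβ1, *Smad4* on with TGFβ1). CPM are read counts scaled to library size with trimmed-mean (TMM) factors, and all values per library below keep this order. *Smad4* was 3.08-fold higher with *Smad4* on than off under SB505124 and 3.31-fold higher under TGFβ1 (edgeR adjusted p = 0.00234 and 8.40e-04), with no overlap between groups. Of 6 epithelial markers *Krt8*, *Krt18*, *Krt19*, *Krt7* and *Cdh1* were at or above 11.5 CPM in all 8 libraries, whereas *Epcam* was between 0.154 and 2.10 CPM, at its lowest 3 counts. The summed level of the 6 was 2065 to 3935 CPM in *Smad4*-off SB505124, 1653 to 6175 in *Smad4*-on SB505124, 1263 to 3903 in *Smad4*-off TGFβ1 and 1175 to 5679 in *Smad4*-on TGFβ1 libraries. Summed markers of leukocytes and acinar cells stayed at or below 6.29 CPM, those of fibroblasts at or below 33.9 and those of endothelium at or below 26.0. *Ptprc*, *Adgre1*, *Lum*, *Dcn*, *Emcn* and *Cpa1*, from these lists, were each at or below 0.154 CPM in all 8 libraries, about what 3 counts are worth. Some other markers on the same lists were higher, with *Pdgfrb* up to 27.2, *Kdr* up to 25.2, *Pdgfra* up to 6.42 and *Cd68* up to 6.24 CPM. *Cdh5* reached 2.74, *Cela1* 1.33, *Fap* 0.348, *Prss2* 0.256 and *Pecam1* 0.216 CPM. Whether changes in epithelial state had a part in the results below was not tested.

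The promoters of 6 members are shown for the sequence features that G2/M genes are known for, which 5 of them hold in the printed stretch. In RefSeq's promoter table (build GRCm38.p6, 250 bases before to 50 bases after each annotated start) 44 of the 50 members had an entry, and *Aurkb*, *Cdc25c*, *Cdca2*, *Dlgap5*, *Smc4* and *Tpx2* had none. Only the 120 bases before the start are printed, 5′ to 3′ on the gene's strand, with CHR matches (TTTGAA or TTCGAA, either strand) and CCAAT boxes (either strand) in capitals. Of those shown, *Gas2l3*, *Ckap2* and *Ccnb2* were among the 4 members with the lowest p for *Smad4* restoration under TGFβ1. *Cdc20* fell by more than 2-fold with TGFβ1 in *Smad4*-on cells. *Top2a* is shown for its dense motifs beside a smaller decrease, and *Rangap1* because it passed no comparison and has neither motif in this stretch. The CHR match of *Rangap1* lies 16 bases after the start, so it counts below as a member with a CHR.
Gas2l3: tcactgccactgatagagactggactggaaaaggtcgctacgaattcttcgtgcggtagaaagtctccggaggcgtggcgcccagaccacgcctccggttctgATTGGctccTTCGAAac
Ckap2: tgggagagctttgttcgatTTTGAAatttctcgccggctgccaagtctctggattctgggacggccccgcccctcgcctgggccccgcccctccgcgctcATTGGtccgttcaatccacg
Ccnb2: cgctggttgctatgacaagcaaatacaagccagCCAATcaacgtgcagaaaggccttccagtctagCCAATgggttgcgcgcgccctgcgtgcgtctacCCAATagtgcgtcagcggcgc
Cdc20: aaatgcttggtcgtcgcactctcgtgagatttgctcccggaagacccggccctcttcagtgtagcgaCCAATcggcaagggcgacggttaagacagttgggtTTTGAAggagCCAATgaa
Top2a: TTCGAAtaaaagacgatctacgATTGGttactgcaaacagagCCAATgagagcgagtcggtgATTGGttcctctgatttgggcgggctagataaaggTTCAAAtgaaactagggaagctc
Rangap1: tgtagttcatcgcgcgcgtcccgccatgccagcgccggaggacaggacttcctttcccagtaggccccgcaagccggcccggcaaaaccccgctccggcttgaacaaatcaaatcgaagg

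These stretches lie at chr10:89443968-89444087 (minus strand), chr8:22185820-22185939 (minus strand), chr9:70421555-70421674 (minus strand), chr4:118437344-118437463 (minus strand), chr11:99024190-99024309 (minus strand) and chr15:81729920-81730039 (minus strand). The genes themselves lie beside them, with *Ccnb2* at chr9:70407692-70421547, *Cdc20* at chr4:118432901-118437352, *Ckap2* at chr8:22168160-22185819 and *Top2a* at chr11:98992943-99024189. *Gas2l3* has an inverted CCAAT box 17 bases and a CHR 8 bases before the start. *Ccnb2* has 3 CCAAT boxes at 87, 54 and 21 bases before the start, while its CHR matches lie outside the printed stretch. Over the whole windows a CHR was present in 35 of the 44 members (79.5%), compared with 6 of 31 S-phase genes (19.4%) and 21.7% of the 27025 genes in the table. CCAAT was present in 34 members (77.3%), 71.0% of the S-phase genes and 41.1% of all genes, and both motifs in 29 members (65.9%), 12.9% and 8.61%. The 9 members with an entry but no CHR were *Birc5*, *Cenpe*, *Cks2*, *G2e3*, *Gtse1*, *Nek2*, *Nuf2*, *Nusap1* and *Tacc3*. A match is a stretch of letters and was not tested as a binding site.

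Averaged over its 50 genes, the G2/M program was highest in SB505124 and lowest in *Smad4*-on cells given TGFβ1, in both lines. The mean log2 CPM over the members in B73 was 7.32, 7.39, 7.18 and 6.88, and in B87 7.46, 7.43, 7.03 and 6.62. Group means were 7.39 ± 0.099 (SD, n = 2) in *Smad4*-off SB505124 cells, 7.41 ± 0.025 in *Smad4*-on SB505124 cells, 7.11 ± 0.11 in *Smad4*-off TGFβ1 cells and 6.75 ± 0.18 in *Smad4*-on TGFβ1 cells. The last group did not overlap with any other, and the *Smad4*-on and *Smad4*-off SB505124 groups overlapped. Relative to the *Smad4*-off SB505124 library of the same line, the mean under TGFβ1 stood at -0.13 in B73 and -0.43 in B87 with *Smad4* off, and at -0.44 and -0.84 with *Smad4* on. As a share of all counts the members were at 1.12% in the first and 0.754% in the last condition in B73, and at 1.23% and 0.624% in B87. In these bulk libraries a smaller share of cells in G2 or mitosis and less of these RNAs per cell cannot be told apart.

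**Figure D1:**
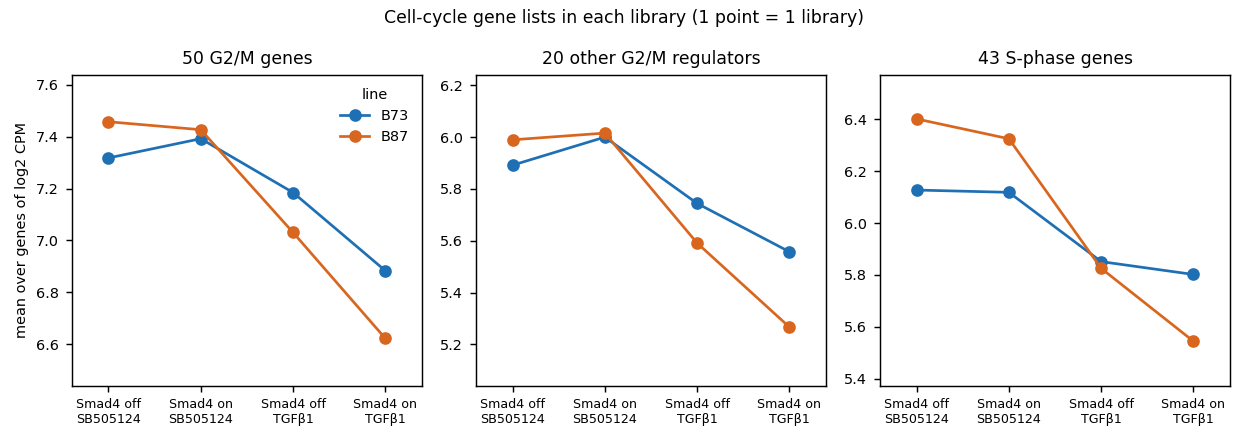
Mean log2 CPM over the 50 G2/M genes, 20 other G2/M regulators and 43 S-phase genes (vertical axes, each spanning the same range) in the 4 conditions, with 1 point per library and 1 line per cell line. The G2/M mean falls from *Smad4*-off to *Smad4*-on cells under TGFβ1 in both lines (7.18 to 6.88 in B73, 7.03 to 6.62 in B87), and over the same step the S-phase mean also falls (B73 5.85 to 5.80, B87 5.83 to 5.54).

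The first comparison asked what TGFβ1 did to these genes once *Smad4* was restored. Compared with SB505124, 43 of the 50 members decreased and none increased (edgeR quasi-likelihood test with the line in the model, adjusted p under 0.05 over all tested genes), against 17.6% of all genes that decreased. The median log2 fold change of the members was -0.62 (range -1.32 to -0.048), and over all tested genes it was -0.019. All 50 estimates were negative, 48 of them in both lines, with medians of -0.52 in B73 and -0.78 in B87. Both TGFβ1 libraries were below both SB505124 libraries for 46 members, compared with 30.0% of all tested genes. A decrease of more than 2-fold was reached by 7 members, *Gas2l3*, *Cdc25c*, *Mki67*, *Lbr*, *Kif11*, *Cdc20* and *Hmgb2*, at a background of 8.31% of all genes. The count of 43 was 25 without the *Smad4*-on SB505124 library of B87 and 26 without the *Smad4*-on TGFβ1 library of B87.

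Among the 6 members of the CDK1 engine 4 decreased. *Ccnb2*, the cyclin B2 partner of CDK1, was measured at 137, 121, 114 and 66.9 CPM in B73 and 137, 122, 93.9 and 56.6 in B87. *Cdc25c*, the phosphatase that activates CDK1, was measured at 44.8, 44.2, 35.1 and 21.3 CPM in B73 and 42.8, 42.5, 29.4 and 18.4 in B87. In both genes the *Smad4*-on TGFβ1 libraries were the lowest of each line and far below the *Smad4*-on SB505124 libraries, with log2 fold changes of -0.98 ± 0.10 (SE, adjusted p = 7.29e-04) and -1.13 ± 0.10 (SE, adjusted p = 4.19e-04). Of the exon bases of *Cdc25c* in GENCODE M21 12.7% overlap Gm3550 on the opposite strand. The length given with the counts was 1941 bases, against 4919 in GENCODE M21, so how far its counts are affected is uncertain. *Cdca3*, a factor that promotes mitotic entry, decreased by 0.99 on the log2 scale. *Cdk1* itself was measured at 261, 291, 263 and 242 CPM in B73 and 302, 294, 237 and 184 in B87, and its log2 fold change was -0.46 ± 0.14 (SE, adjusted p = 0.0453). Its small CDK-binding subunits did not pass. *Cks1b* was measured at 129, 124, 164 and 138 CPM in B73 and 141, 129, 130.3 and 108 in B87, a log2 fold change of -0.048 ± 0.14 (SE, adjusted p = 0.820), with B73 and B87 on opposite sides of zero (0.15 and -0.26). *Cks2*, at -0.32 ± 0.16 (SE, adjusted p = 0.186), shares 26.9% of its 75-base stretches with the pseudogene Gm15452, and its counts are uncertain.

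The mitotic kinases and the chromosomal passenger complex (CPC) had 5 of 7 members lower. *Aurkb*, the kinase of the CPC, was measured at 102, 113, 89.6 and 70.5 CPM in B73 and 115, 120.2, 76.7 and 52.9 in B87. *Birc5* (survivin), its partner subunit, was measured at 153, 191, 141 and 129.6 CPM in B73 and 172, 175, 122 and 97.0 in B87. Both were lower in each TGFβ1-treated *Smad4*-on library than in any SB505124 library, with log2 fold changes of -0.92 ± 0.15 (SE, adjusted p = 0.00368) and -0.69 ± 0.13 (SE, adjusted p = 0.00849). *Cdca8* (borealin), *Ttk*, a spindle checkpoint kinase, and *Nek2*, a kinase of centrosome separation, also decreased, with log2 fold changes from -0.87 to -0.55. *Aurka*, the centrosomal Aurora kinase, did not pass: it was measured at 96.4, 111, 111 and 101 CPM in B73 and 103, 99.4, 91.3 and 73.4 in B87, and the *Smad4*-on TGFβ1 value of B73 lay above its *Smad4*-off SB505124 value. The checkpoint kinase *Bub1* had -0.32 ± 0.11 (SE, adjusted p = 0.0730).

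All 6 kinetochore and centromere genes decreased, from *Cenpe*, a kinetochore motor, at -0.38 ± 0.11 to *Hjurp*, the chaperone that loads the centromeric histone CENP-A, at -0.77 ± 0.12. Both APC/C genes decreased as well. *Cdc20*, the mitotic activator of the complex, was measured at 202, 236, 169 and 132 CPM in B73 and 225, 244, 147 and 103 in B87. The change of *Cdc20* on the log2 scale was -1.03 ± 0.13 (SE, adjusted p = 0.00164), and *Ube2c*, the ubiquitin-conjugating enzyme that works with the APC/C, had -0.55 ± 0.13 (SE, adjusted p = 0.0200). Of the exon bases of *Ube2c* 22.8% overlap Tnnc2 on the opposite strand, and whether the counting used strand is not given in the sources used here.

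Of the 14 spindle genes 11 decreased. *Ckap2*, a microtubule nucleator of the spindle, was measured at 152, 164, 119 and 90.1 CPM in B73 and 157, 175, 117 and 88.6 in B87, a log2 fold change of -0.92 ± 0.076 (SE, adjusted p = 2.98e-04) with similar values in both lines (-0.86 and -0.98). *Kif11*, the motor that pushes spindle poles apart, fell to -1.04 ± 0.16 (SE, adjusted p = 0.00327). *Ckap5*, *Psrc1* and *Rangap1* did not pass. *Rangap1*, which stimulates GTP hydrolysis by Ran and serves nuclear transport outside mitosis, was measured at 265, 331, 312 and 334 CPM in B73 and 262, 269, 250.3 and 245 in B87, and its groups overlapped. All 5 cytokinesis genes decreased, among them the RhoA activator *Ect2* (-0.64 ± 0.13) and anillin, *Anln* (-0.97 ± 0.14), the contractile ring scaffold.

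*Gas2l3*, which encodes a linker of actin and microtubules at the division site, had the largest estimated decrease of all members. Located at 89408823 to 89443967 on chromosome 10 (minus strand, GRCm38), it was measured at 78.0, 71.6, 58.8 and 31.8 CPM in B73 and 66.5, 63.4, 44.5 and 22.6 in B87. The *Smad4*-on TGFβ1 value was less than any other value of the same line, and its log2 fold change was -1.32 ± 0.11 (SE, adjusted p = 2.82e-04), or 0.400 of the SB505124 level.

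All 9 genes of chromosome structure and the nuclear envelope decreased. *Mki67*, the proliferation antigen that coats mitotic chromosomes, was measured at 1072, 1338, 796 and 721 CPM in B73 and 1245, 1399, 777 and 563 in B87. *Top2a*, which decatenates sister DNAs, was measured at 881, 904, 876 and 749 CPM in B73 and 1063, 951, 876 and 642 in B87. *Lbr*, the lamin B receptor of the inner nuclear membrane, was measured at 172, 184, 111 and 91.1 CPM in B73 and 174, 163, 92.6 and 72.9 in B87. In *Mki67* and *Lbr* all 4 TGFβ1 libraries were below all 4 SB505124 libraries, while in *Top2a* the decrease was shallow. The log2 fold changes were -1.09 ± 0.14 (SE, adjusted p = 0.00166), -0.41 ± 0.12 (SE, adjusted p = 0.0415) and -1.08 ± 0.099 (SE, adjusted p = 4.30e-04). The condensin genes *Smc4*, measured at 356, 355, 269 and 244 CPM in B73 and 427, 403, 251 and 222 in B87, and *Ncapd2*, measured at 322, 372, 324 and 281 CPM in B73 and 327, 388, 280.3 and 234 in B87, had -0.69 ± 0.12 (SE, adjusted p = 0.00493) and -0.56 ± 0.10 (SE, adjusted p = 0.00709). *Hmgb2* (-1.02), a chromatin protein, shares 17.5% of its 75-base stretches with the pseudogene Gm4739, and 10.7% of the exon bases of *Lbr* overlap Dnah14 on the other strand. *G2e3*, a ubiquitin ligase with peak expression in G2, stands apart from these roles and was measured at 64.0, 53.5, 43.0 and 40.6 CPM in B73 and 62.2, 57.1, 45.3 and 40.2 in B87, with -0.45 ± 0.089 (SE, adjusted p = 0.00916).

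**Figure D2:**
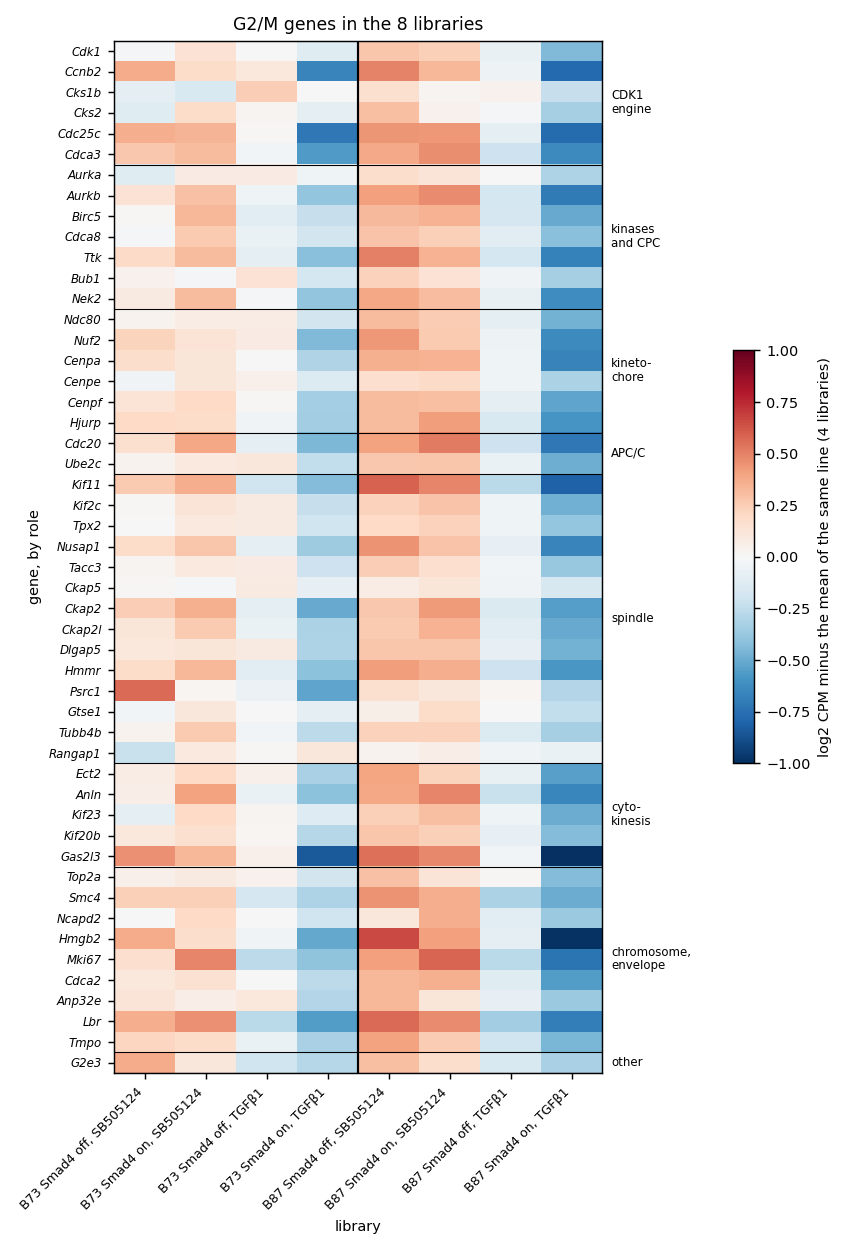
The 50 members (rows, grouped by role) in the 8 libraries (columns), as log2 CPM minus the mean of the same line's 4 libraries, from blue (below) to red (above), with a vertical line between B73 and B87. The *Smad4*-on TGFβ1 column of each line is the bluest and is the lowest of its line for 46 members in B73 and for all 50 in B87, with *Rangap1* and *Cks1b* near white. The matching shares over all genes were not computed.

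The same treatment was then compared in cells kept on Dox. With *Smad4* off, 12 of the 50 members decreased under TGFβ1 and none increased, at a background of 6.24% of all genes. The 12 were *Lbr*, *G2e3*, *Ckap2*, *Smc4*, *Gas2l3*, *Cdca3*, *Cdc25c*, *Tmpo*, *Hmmr*, *Kif11*, *Mki67* and *Ccnb2*, and none was down more than 2-fold. The median log2 fold change was -0.29 over the members and -0.017 over all genes, with -0.11 in B73, where 34 members were negative, and -0.42 in B87, where all 50 were. *Lbr* decreased most, with -0.79 ± 0.098 (SE, adjusted p = 0.00415), followed by *Kif11* at -0.68 ± 0.16 (SE, adjusted p = 0.0334), *Smc4* at -0.60 ± 0.12 (SE, adjusted p = 0.0197) and *Mki67* at -0.57 ± 0.14 (SE, adjusted p = 0.0387). *G2e3* had -0.53 ± 0.088 (SE, adjusted p = 0.0113) and *Ckap2* -0.40 ± 0.076 (SE, adjusted p = 0.0183). *Cdk1*, *Aurka*, *Aurkb*, *Birc5*, *Cdc20* and *Top2a* did not pass, with values from -0.46 (*Cdc20*) to -0.0079 (*Aurka*). *Cks1b* had the largest estimate above zero, 0.095 ± 0.14 (SE, adjusted p = 0.696). Both TGFβ1 libraries were below both SB505124 libraries for 33 members, compared with 24.5% of all genes. This count of 12 was 1 with edgeR without the line and 9 with DESeq2 without the line, and among fits lacking a library it was 1 without the *Smad4*-off TGFβ1 library of B73, 0 without that of B87 and 3 without the *Smad4*-off SB505124 library of B87.

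**Figure D3:**
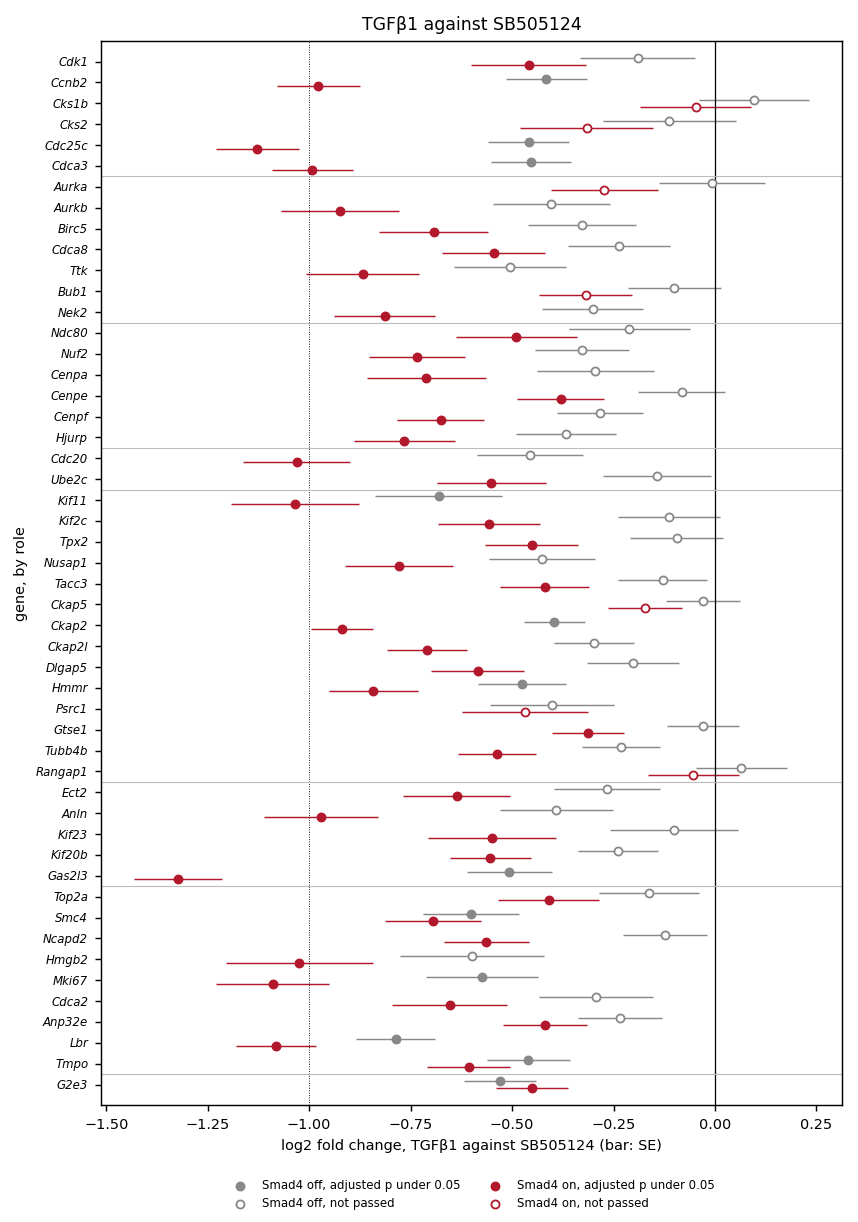
Log2 fold change of TGFβ1 against SB505124 (horizontal axis, bars are SE, n = 2 libraries per group) for the 50 members (vertical axis, by role) in *Smad4*-off cells (gray) and *Smad4*-on cells (red). Filled points have an adjusted p under 0.05, 43 with *Smad4* on and 12 with *Smad4* off, and the dotted line marks a 2-fold decrease.

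*Smad4*-on cells were next compared with *Smad4*-off cells under TGFβ1. *Smad4* restoration raised none of the 50 members, while 504 of all 14301 tested genes increased. It lowered 6 of the 50, at a background of 3.28% of all genes that decreased. They were *Gas2l3* at -0.92 ± 0.11 (SE, adjusted p = 0.00609), *Ccnb2* at -0.74 ± 0.10 (SE, adjusted p = 0.00956) and *Cdc25c* at -0.69 ± 0.10 (SE, adjusted p = 0.0125), then *Nuf2*, a subunit of the NDC80 complex of the kinetochore, at -0.55 ± 0.12 (SE, adjusted p = 0.0423), *Cdca3* at -0.48 ± 0.099 (SE, adjusted p = 0.0371) and *Ckap2* at -0.40 ± 0.076 (SE, adjusted p = 0.0295). None reached 2-fold, the closest being *Gas2l3* at 0.528 of its *Smad4*-off level. Of the 6, 3 belong to the CDK1 engine, and 1 each to the kinetochore, spindle and cytokinesis genes. The median over all members was -0.33 (B73 -0.29, B87 -0.39), with 49 negative estimates, and over all tested genes -0.0073. The exception was *Rangap1* at 0.045 ± 0.11 (SE, adjusted p = 0.849). *Mki67* had -0.29 ± 0.14 (SE, adjusted p = 0.265), *Top2a* -0.32 ± 0.12 (SE, adjusted p = 0.172), *Cdk1* -0.23 ± 0.14 (SE, adjusted p = 0.383), *Aurka* -0.21 ± 0.13 (SE, adjusted p = 0.389), *Aurkb* -0.43 ± 0.15 (SE, adjusted p = 0.139), *Birc5* -0.21 ± 0.13 (SE, adjusted p = 0.389) and *Cdc20* -0.42 ± 0.13 (SE, adjusted p = 0.114), none of which passed. For 38 members both *Smad4*-on libraries were below both *Smad4*-off libraries, compared with 23.3% of all genes. The count of 6 depended on the fit: it was 0 with edgeR without the line (23 members at an unadjusted p under 0.05), 7 with DESeq2 without the line, 9 with DESeq2 and the line, and 15 with scaling to total counts, which moved the median of all genes to -0.13 and that of the members to -0.45. Without the *Smad4*-off TGFβ1 library of B73 it was 0, without that of B87 2, and without the *Smad4*-on TGFβ1 library of B87 1.

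Under SB505124, with receptor signaling blocked, *Smad4* restoration left no member past the test. None of the 50 passed with edgeR, with or without the line, or with DESeq2, and with the line none had an unadjusted p under 0.05. Few genes passed at all: with the line 89 of all 14301 tested genes decreased (0.622%) and 139 increased. An unadjusted p under 0.05 was found for 1809 of them. The median log2 fold change was 0.0038 over the members and 0.0028 over all genes, 25 members were negative, and the lines had medians of 0.092 (B73) and -0.042 (B87). The lowest p-values belonged to *G2e3* at -0.20 ± 0.088 (SE, adjusted p = 0.411), *Ncapd2* at 0.22 ± 0.10 (SE, adjusted p = 0.454), *Psrc1* at -0.31 ± 0.15 (SE, adjusted p = 0.470) and *Ccnb2* at -0.18 ± 0.10 (SE, adjusted p = 0.514). *Psrc1*, a spindle protein, was measured at 49.1, 33.6, 31.8 and 22.9 CPM in B73 and 77.3, 74.8, 70.2 and 56.5 in B87, so that its negative estimate came with a difference of -0.55 in B73 and of -0.047 in B87. *Mki67* had the largest positive estimate, 0.23 ± 0.14 (SE, adjusted p = 0.558). Both *Smad4*-on libraries were below both *Smad4*-off libraries for 5 members, compared with 14.2% of all genes. A p that misses the threshold does not show that the groups were equal.

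**Figure D4:**
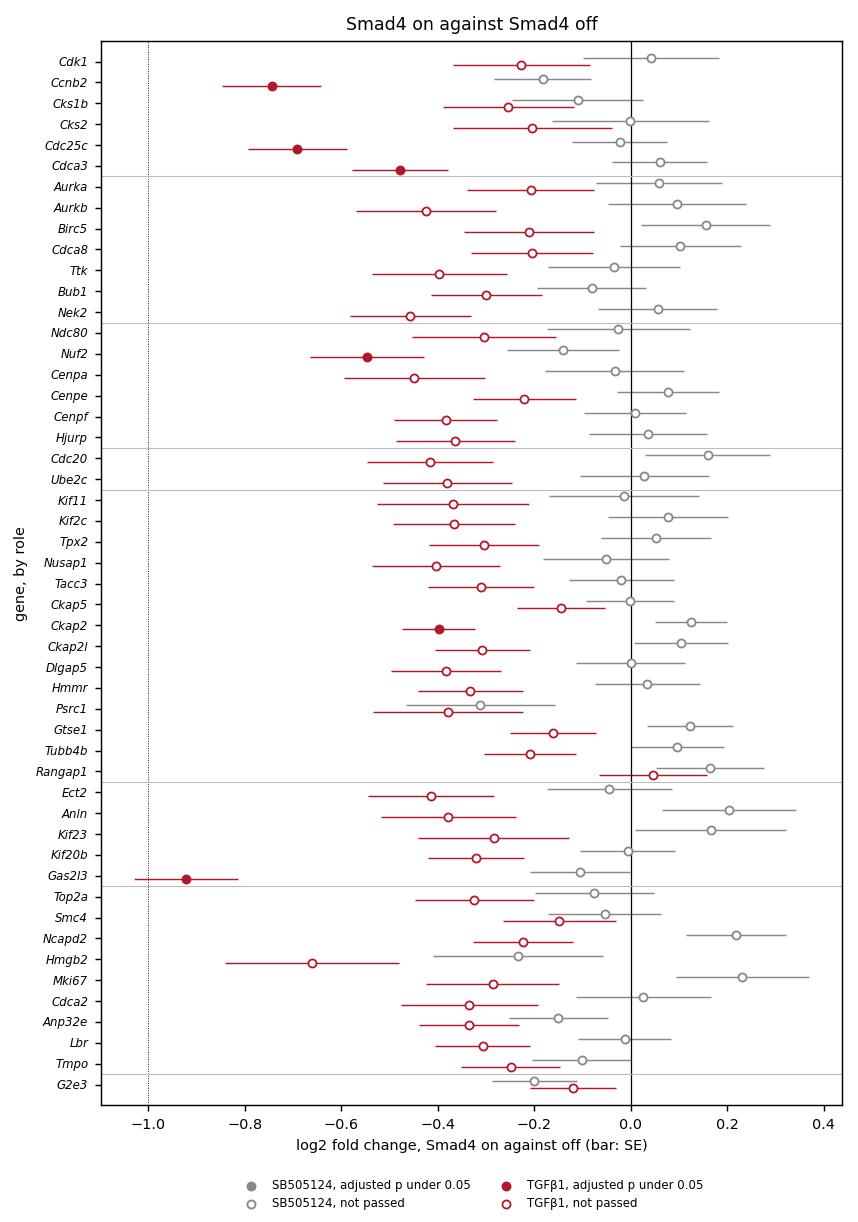
Log2 fold change of *Smad4*-on against *Smad4*-off cells (horizontal axis, bars are SE, n = 2 libraries per group) for the 50 members (vertical axis, by role) under SB505124 (gray) and TGFβ1 (red). Filled points have an adjusted p under 0.05, 6 under TGFβ1 and none under SB505124, where the points scatter around zero (median 0.0038).

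Whether the *Smad4* effect differed between the treatments was tested by the interaction, which is the same number as the difference of the TGFβ1 effect between *Smad4* states. No member passed with edgeR, while of all 14301 tested genes 20 passed with a negative estimate (0.140%) and 8 with a positive one. The estimates were nonetheless negative for 49 of 50 members (48 in B73 and 50 in B87), with a median of -0.36 against -0.014 over all genes. An unadjusted p under 0.05 was reached by 17 members, compared with 6.22% of all genes. The lowest p-values belonged to *Gas2l3* at -0.82 ± 0.15 (SE, adjusted p = 0.126), *Ckap2* at -0.52 ± 0.11 (SE, adjusted p = 0.163), *Cdc25c* at -0.67 ± 0.14 (SE, adjusted p = 0.182) and *Ccnb2* at -0.56 ± 0.14 (SE, adjusted p = 0.242). Of these *Gas2l3*, *Ckap2* and *Cdc25c* passed in DESeq2 with the line, at adjusted p = 0.00379, 0.00809 and 0.0454. *G2e3* was the exception in direction, with 0.080 ± 0.12 (SE, adjusted p = 0.879), as its TGFβ1 effect was -0.53 with *Smad4* off and -0.45 with *Smad4* on. All these contrasts share libraries, so a member low in a single *Smad4*-on TGFβ1 library is low in several of them.

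The estimated decrease with TGFβ1 was larger in B87 than in B73 for most members. With edgeR the difference between the lines passed for no member, but also for 0 of all 14301 tested genes. The TGFβ1 effect averaged over *Smad4* states had a median B87 minus B73 difference of -0.28 on the log2 scale, negative for 48 members. None passed after adjustment, with edgeR or DESeq2, while of all tested genes 54 passed with DESeq2. An unadjusted p under 0.05 and a lower value in B87 were found for 28 members, compared with 4.29% of all genes. The lowest p-values were those of *Cks1b* (-0.43 ± 0.096 (SE, adjusted p = 0.534)), *Ube2c* (-0.42 ± 0.098 (SE, adjusted p = 0.534)) and *Ndc80* (-0.46 ± 0.12 (SE, adjusted p = 0.534)). For the *Smad4* effect averaged over treatments the median line difference was -0.11, and no member passed or had an unadjusted p under 0.05. Of all 14301 tested genes 29 passed as lower and 29 as higher in B87, and 1408 had an unadjusted p under 0.05. The *Smad4*-on TGFβ1 library of B87 was the lowest of all 8 for 49 members. How often that library was the lowest over all genes was not computed. In average level the lines differed for 2 members, compared with 18.6% of all genes that differed in either direction. *Psrc1* was higher in B87 (1.05 ± 0.11 (SE, adjusted p = 0.00109)) and *Gas2l3* lower (-0.32 ± 0.074 (SE, adjusted p = 0.0255)). That count was 6 without the *Smad4*-off SB505124 library of either line and 1 without any of the 4 TGFβ1 libraries.

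Other cell-cycle genes give the setting. Over all tested genes 17.6% decreased with TGFβ1 in *Smad4*-on cells and 6.24% in *Smad4*-off cells. With *Smad4* restoration 3.28% decreased under TGFβ1 and 0.622% under SB505124. Increases with TGFβ1 were found for 2235 of 14301 genes in *Smad4*-on cells and for 996 in *Smad4*-off cells. Of 20 G2/M regulators outside the 50, 15 decreased with TGFβ1 in *Smad4*-on cells (median -0.66), 2 in *Smad4*-off cells (*Cdc25b* and *Ccna2*, median -0.27), 3 with *Smad4* restoration under TGFβ1 (*Cdc25b*, *Bub1b* and *Mad2l1*, median -0.24) and none under SB505124 (median 0.078). *Cdc25b*, another CDK-activating phosphatase, had the largest decrease, to -1.46 in *Smad4*-on cells, and the cyclins *Ccna2* and *Ccnb1* had -0.90 and -0.75. The 43 S-phase genes, which act in DNA replication and repair, form the neighboring list. TGFβ1 lowered 30 of them with *Smad4* on and 11 with *Smad4* off, with medians of -0.55 and -0.46, and *Smad4* restoration under TGFβ1 lowered 1, *E2f8*, with a list median of -0.13. Their interaction median was -0.088, beside -0.36 for the G2/M members, and no member of either list passed it. The difference between the lists was not tested. Among 14 tested pocket proteins, E2F factors and CDK inhibitors, *Cdkn1a* (p21), an inhibitor of CDKs, rose with TGFβ1 by 1.24 on the log2 scale in *Smad4*-on cells and by 1.07 in *Smad4*-off cells. In *Smad4*-on cells 6 of that list decreased, led by *E2f2* (-2.13) and *Cdkn2c* (-1.36). With *Smad4* off 5 decreased, and with *Smad4* restoration under TGFβ1 *E2f8* and *Cdkn2d* did. Of the 4 genes often listed as G2/M genes but left out of the 50 (*Pimreg*, *Jpt1*, *Ctcf* and *Cbx5*), *Pimreg* decreased and *Jpt1* increased with TGFβ1 in *Smad4*-on cells (-0.50 and 0.36).

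Members with and without a CHR overlapped in their changes. With TGFβ1 in *Smad4*-on cells the median log2 fold change was -0.61 over the 35 members with a CHR and -0.45 over the 9 without, and 29 and 8 of them decreased. The median over the 5 members with neither motif was -0.69, and all 5 decreased, beside a median of -0.68 over the 29 with both. For *Smad4* restoration under TGFβ1 the medians were -0.33 and -0.22, and in *Smad4*-off cells TGFβ1 gave -0.28 and -0.30. These are descriptions of unequal groups, with no test. *Gas2l3*, *Ckap2*, *Ccnb2* and *Cdc20* each hold both motifs, but so does *Cks1b*, which did not pass in any of these comparisons, while *G2e3*, with neither, decreased with TGFβ1 in both *Smad4* states.

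Across the members levels spanned a wide range. Per kilobase of annotated exon, the mean over the 8 libraries ran from 6.43 CPM for *G2e3* and 7.77 for *Gas2l3* to 98.3 for *Mki67*, 118 for *Cks1b* and 216 for *Tubb4b*, a β-tubulin. *Tubb4b*, the highest, shares 27.7% of its 75-base stretches with *Tubb4b*-ps1, so its level is uncertain. The member with the steepest decrease, *Gas2l3*, was thus among the least expressed, with 31.8 and 22.6 CPM in the *Smad4*-on TGFβ1 libraries, still far above the 0.162 CPM that 3 counts were worth in the shallowest library.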

How the data were processed

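Poly(A) RNA of 8 libraries (2 lines, 4 conditions) was sequenced from a stranded kit in 75-base single-end runs. Per the labels' processing notes and the study's methods, the authors trimmed reads with Trimmomatic (0.36), aligned them with STAR (2.5.3a) to GRCm38 (mm10) and deposited featureCounts (1.6.3) raw counts per gene; the strand setting of the counting is not given in the sources used here. The table had 0 per-sample columns that matched no library.

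Counts were analyzed in R (4.3.3) with edgeR (4.0.16): filterByExpr, TMM, glmQLFit and glmQLFTest on all 8 libraries with group and cell line, and Benjamini-Hochberg adjustment over all tested genes. "Decreased" and "increased" mean an adjusted p under 0.05; the study's rule adds a change of more than 2-fold. Log2 CPM used a prior count of 2, and SE was derived from the estimate and its F statistic. The study used DESeq2, run here (1.42.0) as an alternative. Other alternatives were DESeq2 size factors, other filters, no line term, fits of 4 libraries, each library left out and, chosen after seeing the data, total-count scaling. The pipeline was tested on simulated data. Replicate numbers mark the cell line, so same-numbered libraries are paired; deviations from the group means correlated at r = 0.642 to 0.774 over 6 pairs of conditions. With 1 library per line and condition, p-values of the fits with the line measure how far the lines disagreed in their changes. The constant difference between the lines is taken out of that spread, and only the fits without the line keep it. Floors of 3 counts (0.125 to 0.162 CPM) cover counting error only.

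The members and all lists were chosen with earlier results of these data known. Values per library are given for Mki67, Top2a, Cdk1, Ccnb2, Aurka, Aurkb, Birc5 and Cdc20 and, per contrast, for the 4 members with the lowest p and the one with the largest change against the majority. Promoters came from RefSeq (GRCm38.p6), and shared 75-base stretches and exon overlaps from GENCODE M21. A further allele carried by all the cells is not reported here.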

Additional observations from a re-analysis of the deposited data

How the results depend on the processing

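Results below are members passed of 50 unless called medians (log2 fold change over the members). All estimates of the medians for TGFβ1 effects, the Smad4 effect under TGFβ1 and the interaction stayed negative in every alternative run. Smad4 effect under TGFβ1, reported 6: no replicate block gave 0 with edgeR and 7 with DESeq2, total-count scaling 15 (median -0.45), no filter on low counts 19, only the 4 libraries compared 21 and the 2-fold rule 0. TGFβ1 effect in Smad4-on cells, reported 43: the 2-fold rule gave 7, and no replicate block 31 with edgeR and 39 with DESeq2. TGFβ1 effect in Smad4-off cells, reported 12: no replicate block gave 1 with edgeR and 9 with DESeq2, no filter 19 and the 2-fold rule 0. Interaction, reported 0: DESeq2 with the line gave 3, DESeq2 with no replicate block 1 and no filter 1, with medians of -0.44 under total-count scaling and -0.38 with no filter. Constant line difference, reported 2: DESeq2 gave 6, no filter 5 and the 2-fold rule 1. Total-count scaling moved the median of all genes to -0.15 for TGFβ1 in Smad4-on cells.

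Leaving out single libraries or, for the medians only, a whole line gave 0 to 8 for the Smad4 effect under TGFβ1 (median -0.49 to -0.19), 0 for that under SB505124 (median -0.12 to 0.18), 25 to 44 for TGFβ1 in Smad4-on cells (median -0.80 to -0.49), 0 to 16 in Smad4-off cells (median -0.42 to -0.11), 0 for the interaction (median -0.53 to -0.20) and 1 to 6 for the constant line difference. These fits have fewer samples; other causes were not tested. Taking the median over members instead of the mean gave library values of 7.34 (Smad4-on SB505124, B73), 7.34 for both SB505124 libraries of B87 and 6.90 (Smad4-off TGFβ1, B87). Blocking changed no other call on these counts. With 2 libraries per group, single members near the threshold are least certain.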
